A study of Rattus norvegicus with 6 samples.

Results

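The miR-17-92 cluster and miR-20b were followed in left ventricular myocardium of rats 24 h after myocardial infarction (MI). The members were the 10 mature microRNAs (miRNAs) of that name on a single-colour Agilent rat miRNA array, out of 758 miRNAs on the array. They were picked out by name, with earlier results of these data known. Both groups were male rats aged 8 weeks, and no genetic change or drug is named for either. In the MI group, 3 samples, the left coronary artery was tied off and the heart taken after 24 h from rats in which the model was judged successful. In the control group, 3 samples with a labelled time of 0 h, the chest was opened in the same way without tying the artery. Time after surgery and ligation therefore cannot be told apart. The strain and the part of the ventricle sampled (infarct, border or remote) are not given in the sources used here, and the labels name no individual animals. The p-values thus reflect how far these 6 samples spread, which may be technical. In bulk tissue, more cells of a type and more RNA per cell cannot be told apart.

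The cluster is a polycistron: a single primary transcript is cut into several hairpins, and each hairpin yields a guide strand, which is loaded into the silencing complex, and a passenger strand, which is mostly degraded. The cluster is switched on by growth-promoting factors such as MYC and E2F, is active in dividing cells, and in mice supports proliferation of heart muscle cells. Its miRNAs recognise targets mainly through the seed, bases 2 to 8 from the 5′ end, and fall into the miR-17/20, miR-18, miR-19 and miR-92 seed families. MiR-17/20 miRNAs are known to repress cell cycle inhibitors such as p21.

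All 10 members had a mature sequence in RefSeq (assembly GRCr8). The 7 guide strands are shown because the comparison is made by seed, and the seed is in capitals.
rno-miR-17-5p: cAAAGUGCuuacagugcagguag
rno-miR-20a-5p: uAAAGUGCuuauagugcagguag
rno-miR-20b-5p: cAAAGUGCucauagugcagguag
rno-miR-18a-5p: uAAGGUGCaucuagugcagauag
rno-miR-19a-3p: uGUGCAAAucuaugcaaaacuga
rno-miR-19b-3p: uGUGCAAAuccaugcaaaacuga
rno-miR-92a-3p: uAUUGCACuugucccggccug

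The seed of miR-18a-5p differs from that of miR-17-5p by A4G, with positions counted from 1 at the 5′ end and the base of miR-17-5p given first. Outside the seed these miRNAs differ by C1U, U9A, A11C, C12U and G20A, so 6 of 23 bases differ. Within the miR-17/20 seed the members are much closer: miR-20a-5p differs from miR-17-5p by C1U and C12U, and miR-20b-5p by U10C and C12U. MiR-19a-3p and miR-19b-3p differ by U11C alone, with the base of miR-19a-3p first. Array probes for such close sequences can take signal from each other, and how far they did so was not tested.

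The 3 passenger strands among the members are shown because each shares a hairpin with a guide strand above, and none of them carries a guide strand's seed.
rno-miR-17-1-3p: aCUGCAGUgaaggcacuugugg
rno-miR-18a-3p: aCUGCCCUaagugcuccuucu
rno-miR-20a-3p: aCUGCAUUacgagcacuuaca

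In GRCr8 the 6 hairpins of the miR-17-92 cluster lie within 785 bases on the plus strand, at chr15:98587848-98588632, and the 5 hairpins of its paralog, the miR-106a-363 cluster, within 871 bases on the minus strand, at chrX:137342777-137343647. MiR-20b-5p comes from the chromosome X cluster alone. MiR-17-5p, miR-19b-3p and miR-92a-3p have identical mature sequences in both clusters, so the array cannot assign their signal to a locus. MiR-18a-5p, miR-19a-3p, miR-20a-5p and the 3 passenger strands are made from chromosome 15 alone.

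Values below are log2 signals: the background-subtracted spot signals were averaged per probe, scaled to an equal 75th percentile, taken over the probes that all 6 arrays detected, and summed over the probes of a miRNA. Their level depends on the probe, so only differences between groups are compared between miRNAs. Of the 758 miRNAs, 449 were detected on every array of at least 1 group and were tested, all 10 members among them, each detected on all 6 arrays. No spot was saturated, between 446 and 472 miRNAs were detected per array, and the median SD between replicates was 0.12 in both groups. The tissue carried the defining miRNAs of heart muscle, with 6 of 6 listed cardiomyocyte miRNAs detected on all arrays.

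Of the members, miR-18a-5p passed the limma test described below, at 1.70-fold above the controls. The other 9 members lay between 1.02-fold and 1.29-fold above the controls, and none of these passed the test. In limma with Benjamini-Hochberg adjustment over all 449 miRNAs, 1 of 10 members was higher at an adjusted p under 0.05, against 1.78% of all tested miRNAs, and 0 were lower, against 0.668%. At an unadjusted p under 0.05 it was 6 members higher, against 8.46% of all, and 0 lower, against 5.12%. That count was 2 members with the 75th percentile over all probes, with median scaling and with no scaling, where all tested miRNAs split into 20 higher and 50 lower, 16 and 59, and 17 and 23, in place of 38 and 23. It was also 2 without MI replicate 1 and 3 without control replicate 1. All 10 differences were above 0, as were 54.8% of all tested miRNAs, with a median of 0.23 over the members and 0.02 over all. Members other than miR-20b-5p can come from 1 transcript, and those within the miR-17/20 or the miR-19 seed have near-identical sequences. All were read on the same arrays, so the members are not independent of each other.

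MiR-18a-5p, the single representative of the miR-18 seed on the array, had log2 signals of 7.18, 7.11 and 7.31 in control replicates 1 to 3 and of 7.99, 7.96 and 7.96 in MI replicates 1 to 3. The MI samples lay close together (SD 0.016, n = 3), above every control (SD 0.10, n = 3). The difference was 0.77 ± 0.08 (SE), with a 95% interval of 0.59 to 0.95, and ranked 9 among the 449 by size and 4 by p (limma adjusted p = 0.00356, n = 3 per group). On the linear scale the summed signal was 139 to 159 in controls and 249 to 254 after MI.

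The call for miR-18a-5p touches the slide. The 3 controls and MI replicate 1 were on slide 1, per the array codes in the file headers, and MI replicates 2 and 3 were on slide 2. With the slide as a block the difference was 0.79 (limma adjusted p = 0.0626), and among the arrays of slide 1 alone it was again 0.79 (limma adjusted p = 0.121). Both values rest on MI replicate 1 against the 3 controls. The part of the slide in the difference was not tested. Control replicate 3 was scanned apart from the others, and without it the difference was 0.83 (limma adjusted p = 0.00805).

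MiR-17-5p, of the miR-17/20 seed, had log2 signals of 9.66, 9.81 and 9.78 in controls and 10.14, 10.12 and 10.07 after MI. The groups did not overlap. The difference of 0.36 ± 0.07 (SE), with a 95% interval of 0.19 to 0.54, missed the threshold (limma adjusted p = 0.0619, n = 3 per group). It passed in 2 of 23 alternatives, normexp background correction and eBayes with trend and robust settings (limma adjusted p = 0.0195 and 0.0448; 0.0195 to 0.403 over all alternatives).

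MiR-20a-5p, which shares the seed, stood at 11.31, 11.50 and 11.46 in controls and at 11.79, 11.67 and 11.62 after MI. MiR-20b-5p, from chromosome X, stood at 10.78, 11.02 and 10.94 in controls and at 11.29, 11.17 and 11.13 after MI. For both, every MI sample was above every control. Their differences were alike, 0.27 ± 0.09 and 0.28 ± 0.09 (SE), with 95% intervals of 0.06 to 0.47 and 0.07 to 0.50 (limma adjusted p = 0.239 and 0.235, n = 3 per group).

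In the miR-19 seed, miR-19a-3p had log2 signals of 10.17, 10.33 and 10.33 in controls and 10.57, 10.47 and 10.46 after MI, without overlap. MiR-19b-3p had 12.64, 12.76 and 12.80 in controls and 12.90, 12.78 and 12.80 after MI, and there the groups overlapped. The differences were 0.22 ± 0.08 and 0.09 ± 0.08 (SE), with 95% intervals of 0.03 to 0.41 and -0.09 to 0.28 (limma adjusted p = 0.268 and 0.625, n = 3 per group).

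MiR-92a-3p, the guide strand of the last hairpin, had log2 signals of 10.11, 10.41 and 10.33 in controls and 10.58, 10.41 and 10.38 after MI. Only MI replicate 1 stood clear of the controls. On that array 8 of the 16 spots of miR-92a-3p were flagged as outliers and left out, against 0 to 3 on the other arrays. The difference was 0.17 ± 0.10 (SE), with a 95% interval of -0.08 to 0.42 (limma adjusted p = 0.525, n = 3 per group).

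**Figure D1:**
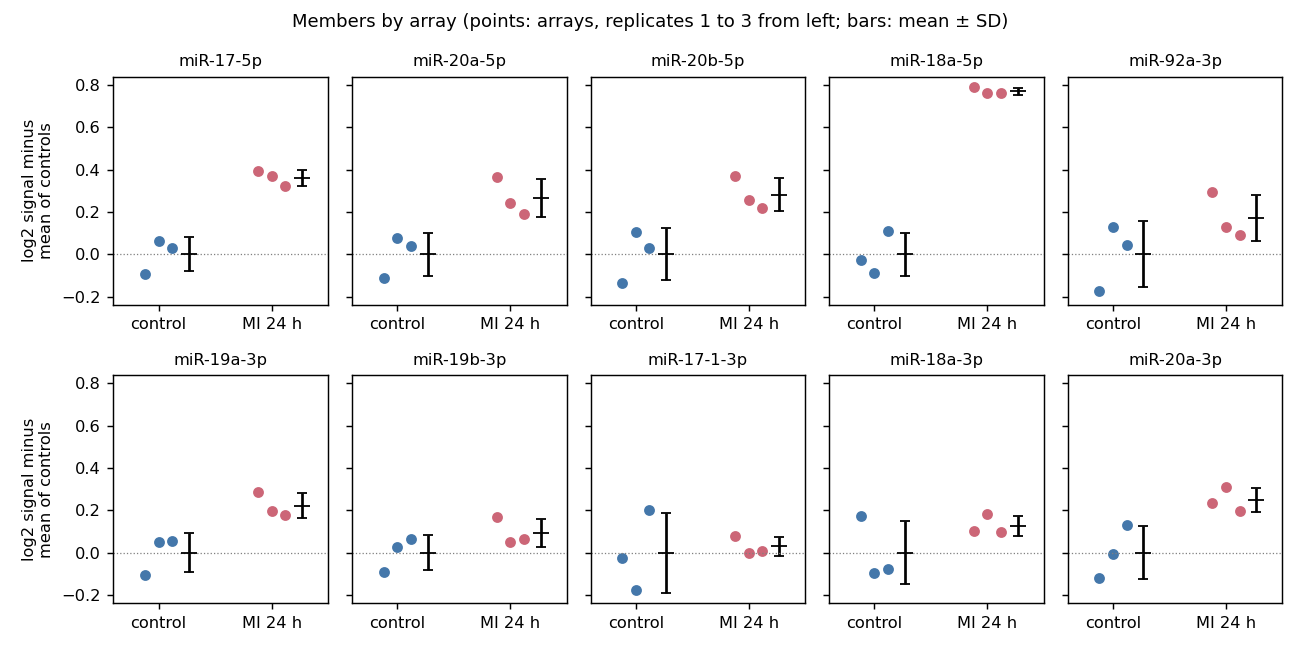
Log2 signal of each member minus the mean of its 3 controls (vertical axis), by group (horizontal axis), with 1 point per array, replicates 1 to 3 from the left, and bars for the mean ± SD of 3 arrays. The MI points of miR-18a-5p sit between 0.76 and 0.79, those of miR-17-5p, miR-20a-5p, miR-20b-5p, miR-19a-3p and miR-20a-3p sit above all controls at smaller differences, and the groups of the other 4 members overlap.

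The groups did not overlap for 6 of 10 members, all with MI above, against 10.9% of all tested miRNAs with MI above; for 0 members MI was below, against 9.8%. The arrays were ordered alike across guide strands. Control replicate 1 was the lowest control for 6 of 7 guide strands, the exception being miR-18a-5p, and MI replicate 1 the highest MI sample for 7 of 7. Over all tested miRNAs these shares were 27.2% and 22.5%. The part of this shared order in the differences was not tested.

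How far miR-18a-5p stood from its cluster partners was taken from the difference of log2 signals within each array. This removes only a shift that both miRNAs share on an array. Control replicates 1 to 3 lay at -0.03, -0.09 and 0.11 from their mean for miR-18a-5p and at -0.09, 0.06 and 0.03 for miR-17-5p. MiR-18a-5p was chosen for these pairs because it was known from earlier results of these data to be the called member. All 6 pairs share it, and their direction follows from that choice, so they describe only the size of the distance. The within-array difference between miR-18a-5p and miR-17-5p was -2.48, -2.70 and -2.47 in controls and -2.16, -2.16 and -2.11 after MI. The difference between miR-18a-5p and each of the 6 other guide strands was larger in every MI sample than in every control, in 3 of 3 MI samples. The group means of this difference were apart by 0.41 ± 0.08 (SE) for miR-17-5p, 0.50 ± 0.09 for miR-20a-5p and 0.49 ± 0.10 for miR-20b-5p. They were apart by 0.55 ± 0.07 for miR-19a-3p, 0.68 ± 0.06 for miR-19b-3p and 0.60 ± 0.12 for miR-92a-3p. Each of the 6 pairs had a two-sided exact permutation p of 0.1, the smallest that 3 against 3 samples allow, and 0.1 after adjustment over the 6 pairs, so the design cannot bring these below 0.05. Within slide 1, where MI replicate 1 is set against the controls, these values lay between 0.39 and 0.62. With normexp background correction, which added an offset of 50 to each spot, they were smaller. They were 0.18 for miR-17-5p, 0.26 for miR-20a-5p, 0.24 for miR-20b-5p, 0.31 for miR-19a-3p, 0.42 for miR-19b-3p and 0.35 for miR-92a-3p. Without normexp the probes of miR-18a-5p read 45.0 to 106.1 in controls. The part of the offset in the smaller values was not tested.

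Grouped by seed, the mean MI difference was 0.77 for miR-18 (1 member), 0.30 for miR-17/20 (3 members), 0.17 for miR-92 (1 member) and 0.16 for miR-19 (2 members). For the 3 passenger strands it was 0.13. These means are descriptions and were not tested against each other.

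The passenger strands were dim, so that their values rest on few probes. MiR-18a-3p, the passenger strand of the miR-18a hairpin, had log2 signals of 4.48, 4.22 and 4.23 in controls and 4.41, 4.49 and 4.41 after MI, with overlap, and 1 of its 2 probes was detected. The difference was 0.13 ± 0.09 (SE), with a 95% interval of -0.10 to 0.35 (limma adjusted p = 0.605, n = 3 per group). MiR-17-1-3p had 5.59, 5.44 and 5.81 in controls and 5.69, 5.61 and 5.62 after MI, which overlap. The means differed by 0.03 ± 0.11 (SE), at an adjusted p of 0.922 in limma with n = 3 per group, and this turned below 0 under all 4 of the other scalings, and of its 4 probes 1 was detected on 6 arrays, 1 on 3 and 2 on none. MiR-20a-3p had 5.88, 5.997 and 6.13 in controls and 6.24, 6.31 and 6.20 after MI, without overlap, and 3 of its 4 probes were detected on all arrays. Its means differed by 0.25 ± 0.09 (SE), with limma giving an adjusted p of 0.268 (n = 3 per group).

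Whether paired strands differed alike was tested on the log2 signal of the 5p strand minus that of the 3p strand. This was done in limma over all 132 strand pairs of the array with both strands tested. A strand made from more than 1 hairpin, such as miR-17-5p, brings signal from each of them. Of the 3 pairs of members, 1 was past an adjusted p of 0.05, against 3.79% of all pairs, and 2 had an unadjusted p under 0.05, against 16.7%. For 2 of the 3 every MI sample was above every control, against 12.1% of all pairs.

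The called pair was miR-18a, in which the guide strand gained on its passenger strand. Its change follows from the difference of 0.77 for miR-18a-5p, already the called member, and that of 0.13 for the dim miR-18a-3p. The pair is therefore not separate from the call of miR-18a-5p. The 5p minus 3p difference was 2.69, 2.90 and 3.08 in controls and 3.58, 3.47 and 3.56 after MI. The change of 0.64 ± 0.11 (SE) had an adjusted p of 0.0468 in limma (n = 3 per group). The call sat close to the threshold: it was lost without any single sample, with changes of 0.54 to 0.74 and limma adjusted p values of 0.0798 to 0.195, and in 16 of 23 alternatives in all. Blocking on the slide gave 0.69 (limma adjusted p = 0.304). The direction was the same in all 23, with changes between 0.43 and 0.74.

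For miR-17, the guide strand stood above miR-17-1-3p by 4.07, 4.37 and 3.97 in controls and by 4.45, 4.51 and 4.45 after MI. The groups did not overlap, and the means differed by 0.33 ± 0.11 (SE), with an adjusted p of 0.199 in limma (n = 3 per group). MiR-17-5p comes from chromosomes 15 and X and miR-17-1-3p from chromosome 15 alone, so this change cannot be assigned to a single hairpin. For miR-20a the difference was 5.43, 5.51 and 5.33 in controls and 5.55, 5.36 and 5.42 after MI. The groups overlapped, and the means differed by 0.02 ± 0.08 (SE), with a 95% interval of -0.18 to 0.22 (limma adjusted p = 0.937, n = 3 per group).

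**Figure D2:**
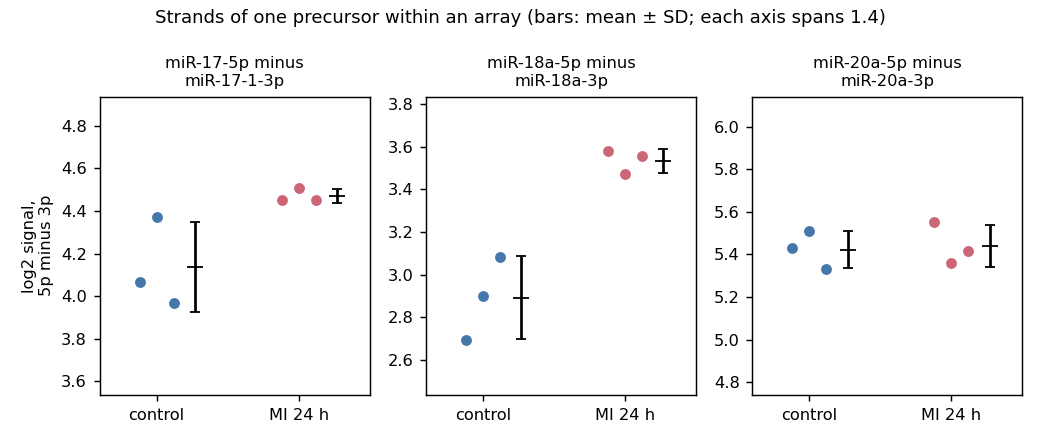
Log2 signal of the 5p strand minus that of the 3p strand within an array (vertical axis, each panel spanning 1.4) for the 3 hairpins with both strands among the members, by group (horizontal axis), with 1 point per array and bars for the mean ± SD of 3 arrays. The MI points of miR-18a lie between 3.47 and 3.58 and the controls between 2.69 and 3.08, while for miR-20a the groups overlap. The 5p strand of miR-17 is also made from a hairpin on chromosome X.

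The probes of a guide strand gave differences of the same sign. The first probe of miR-18a-5p had scaled signals of 47.4, 45.0 and 53.0 in controls and 92.6, 92.7 and 89.8 after MI, and the other had 97.2, 93.6 and 106.1 in controls and 161, 157 and 160 after MI. Both probes separated the groups, with log2 differences of 0.92 and 0.69. For miR-17-5p the probes gave 0.29 and 0.40, for miR-20a-5p 0.31 and 0.24, and for miR-20b-5p 0.27 and 0.29, in each case with every MI sample above every control. The probes of miR-19a-3p, at 0.20 and 0.25, also separated the groups, while of those of miR-19b-3p, at 0.06 and 0.15, 1 did, and of those of miR-92a-3p, at 0.16 and 0.18, none did. Each guide strand had 16 spots per array before outlier spots were left out. For miR-18a-5p, 0 were left out on each control array and 1, 3 and 3 on MI replicates 1 to 3. Among the kept spots of a probe of miR-18a-5p, the coefficient of variation lay between 2.19% and 5.60% on an array, as the median over its probes.

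**Figure D3:**
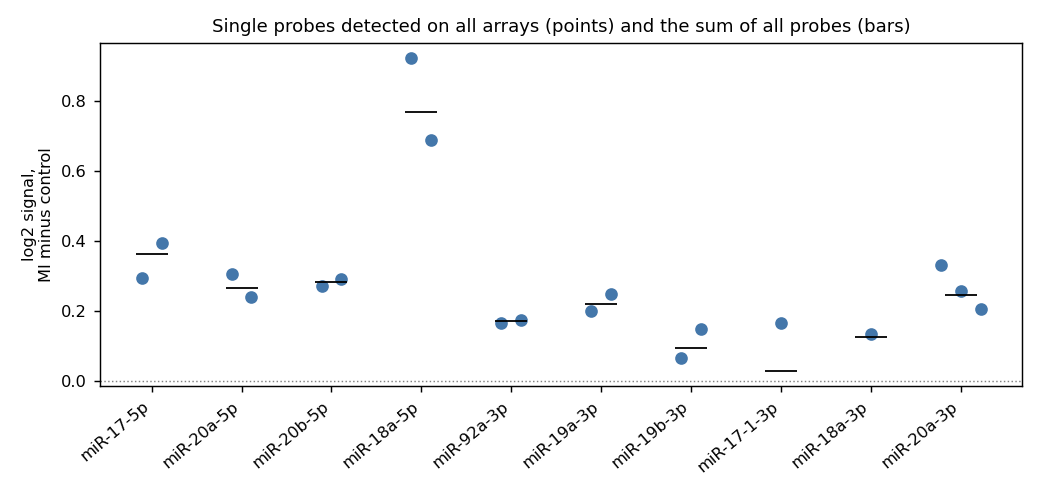
Log2 difference between MI and control (vertical axis) for each probe detected on all 6 arrays (points) and for the sum of all probes (bars) of each member (horizontal axis). Both probes of miR-18a-5p, at 0.92 and 0.69, lie above every probe of the other members.

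The other miRNAs of these clusters were mostly too dim to test. Of 9 further strands, 2 were tested and 0 were past the threshold in limma, against 1.78% higher and 0.668% lower of all tested miRNAs. At an unadjusted p under 0.05 there were 0, against 8.46% higher and 5.12% lower of all. MiR-20b-3p, the partner strand of miR-20b-5p, stood at 8.10, 8.02 and 7.71 in controls and 8.20, 8.15 and 8.13 after MI, on 1 detected probe of 4. Every MI sample was above every control, by 0.22 ± 0.11 (SE) between the means (limma adjusted p = 0.470, n = 3 per group). MiR-363-3p, the last miRNA of the chromosome X cluster and of the miR-92 seed, stood at 5.53, 5.79 and 5.99 in controls and 5.19, 5.80 and 5.27 after MI. Its groups overlapped, and the means differed by -0.35 ± 0.19 (SE), with a 95% interval of -0.81 to 0.11 (adjusted p of 0.491 in limma, n = 3 per group).

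MiRNAs of other loci with the same seeds gave a comparison outside the 2 clusters. From the list of the miR-106b-25 cluster and shared seeds, 6 of 8 were tested and 0 were past the threshold in limma. Of all tested miRNAs, 1.78% were past it higher and 0.668% lower. At an unadjusted p under 0.05 there were 0, against 8.46% higher and 5.12% lower of all. With so few tested, these counts do not set the relatives apart. Their median difference was 0.01, against 0.02 over all tested miRNAs. MiR-106b-5p, with the miR-17/20 seed and 3 differences from miR-17-5p over its 21 bases, stood between 11.46 and 11.53 in controls and between 11.45 and 11.50 after MI, so that the means differed by -0.02 ± 0.06 (SE), with a 95% interval of -0.17 to 0.13. MiR-93-5p, of the same seed, differed by 0.13 ± 0.07, with a 95% interval of -0.05 to 0.30, and every MI sample was above every control. Of the miR-92 seed, miR-25-3p differed by 0.01 ± 0.06, miR-32-5p by -0.01 ± 0.07 and miR-92b-3p by 0.27 ± 0.17 (SE).

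The members were set against these relatives within each array, in 10 pairs chosen after seeing the data. Relative to miR-106b-5p, miR-17-5p stood higher after MI by 0.38 ± 0.06 (SE), miR-20b-5p by 0.30 ± 0.09 and miR-20a-5p by 0.28 ± 0.09, and in all 3 pairs every MI sample was above every control. Relative to miR-93-5p, miR-17-5p stood higher by 0.24 ± 0.08 without overlap, while the pairs of miR-20a-5p and miR-20b-5p with miR-93-5p overlapped between groups, at 0.14 ± 0.11 and 0.16 ± 0.12. The within-array difference of miR-92a-3p was higher by 0.16 ± 0.12 against miR-25-3p, by 0.19 ± 0.11 against miR-32-5p and by 0.52 ± 0.24 against miR-363-3p, each with overlap. Against miR-92b-3p the value was -0.10 ± 0.28, also with overlap. The 4 pairs without overlap had a two-sided exact permutation p of 0.1, the smallest possible here, and 0.25 after adjustment over the 10 pairs (n = 3 per group); the other 6 had adjusted exact permutation p values of 0.333 to 0.9.

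**Figure D4:**
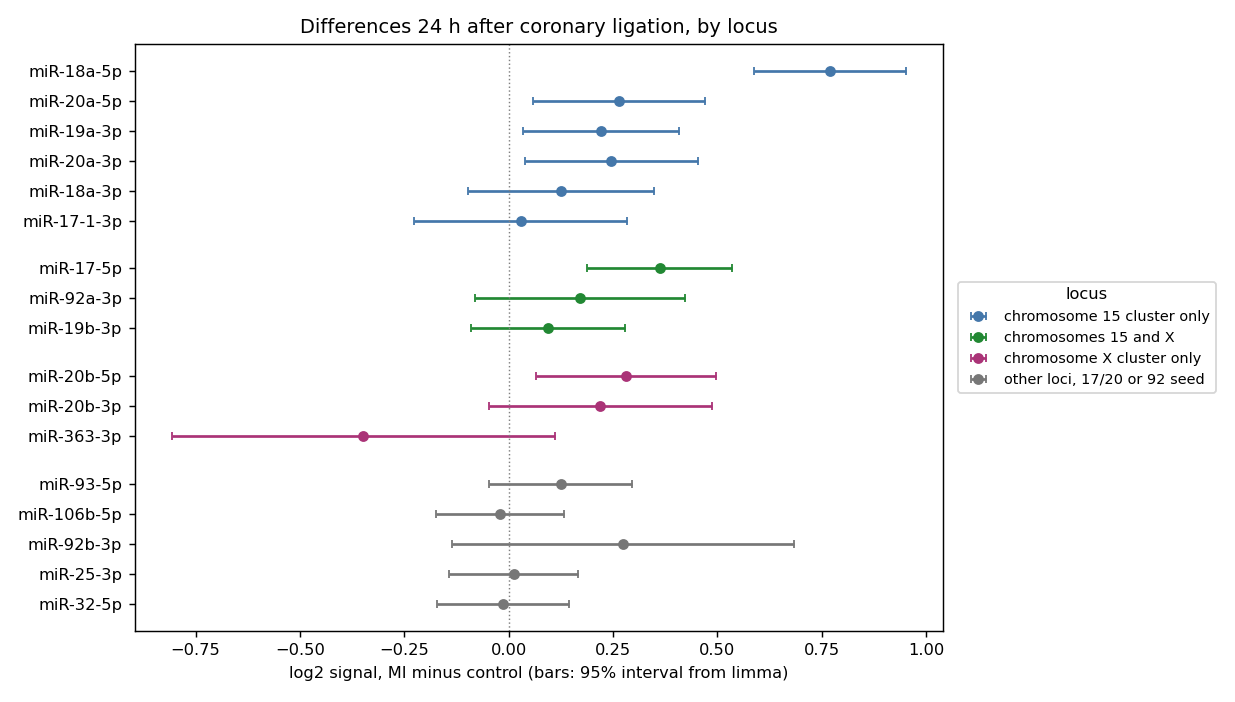
Log2 difference between MI and control (horizontal axis; points, with bars for the 95% interval from limma) for the members and for tested miRNAs of the chromosome X cluster or with the same seeds (vertical axis), coloured by the locus of their genes. MiR-18a-5p lies at 0.77, its interval and those of miR-17-5p, miR-20a-5p, miR-20b-5p, miR-19a-3p and miR-20a-3p lie above 0, and miR-106b-5p, miR-25-3p and miR-32-5p lie within 0.02 of 0.

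MiRNAs of blood cells were measured beside the members, since the cluster is also active in blood cell precursors. The 6 listed leukocyte miRNAs were all detected on all arrays. Their summed level on the log2 scale lay between 13.94 and 14.12 in controls and between 14.05 and 14.49 after MI, with overlap. The means of this sum differed by 0.27, and 0 of 6 passed in limma, with 1 at an unadjusted p under 0.05. That miRNA was miR-223-3p, abundant in neutrophils, which stood 1.45 ± 0.29 (SE) above the controls, at an adjusted p of 0.0619 in limma (n = 3 per group). Of the other 5, miR-150-5p, of lymphocytes, and miR-342-3p lay lower after MI without overlap, with differences of -0.21 and -0.17, and the groups of the other 3 overlapped. The summed level of 4 erythroid miRNAs, all detected, lay between 14.25 and 14.73 in controls and between 14.57 and 15.04 after MI, with overlap. The means of this sum differed by 0.35. Singly, miR-144-5p differed by 0.41, miR-451-5p by 0.36, miR-144-3p by 0.35 and miR-486 by 0.0007. In limma 0 of 4 passed, and 0 were at an unadjusted p under 0.05. In MI replicates 1 to 3 the summed leukocyte level was 14.05, 14.49 and 14.38, and the summed erythroid level 14.57, 14.67 and 15.04. The summed cardiomyocyte level lay between 18.48 and 18.71 in controls and between 18.55 and 18.64 after MI; 0 of 6 passed in limma, with 1 at an unadjusted p under 0.05, the heart muscle miRNA miR-208a-3p, at -0.21 ± 0.08 (SE) with MI below every control. The summed level of 2 endothelial miRNAs differed by -0.14, with MI below every control. Singly, miR-126a-3p lay below every control at -0.14, as did 9.8% of all tested miRNAs, and miR-126a-5p overlapped between groups at -0.15. In limma 0 of 2 passed, and 0 were at an unadjusted p under 0.05. The summed level of 2 smooth muscle and fibroblast miRNAs differed by -0.12, with overlap. There too 0 of 2 passed in limma, with 0 at an unadjusted p under 0.05. The part of these cells in the members' differences was not tested.

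The tested miRNAs with patterns nearest to miR-18a-5p, by the root mean square distance over the 6 arrays between profiles centred on their control means, were miR-7a-5p at 0.19, miR-132-3p at 0.19, miR-21-5p at 0.19 and miR-490-5p at 0.20. All 4 were past the threshold, with differences of 0.54, 0.85, 1.03 and 1.00. Nearest to miR-17-5p were miR-511-3p at 0.09 and miR-188-5p, miR-130b-3p and miR-15b-5p, each at 0.11. Their differences were 0.29, 0.34, 0.23 and 0.26, and none of these 4 was past the threshold (limma adjusted p between 0.178 and 0.227, n = 3 per group).

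The authors' processed values, on a log2 scale with equal column medians of 3.95, gave miR-18a-5p as 6.13, 6.14 and 6.26 in controls and 6.88, 6.94 and 6.92 after MI. The difference was 0.74 there, and 0.31 for miR-17-5p. For the other guide strands it lay between 0.13 and 0.28, and for miR-18a-3p and miR-17-1-3p at 0.06 and -0.03. As with the scaled signals, miR-18a-5p had the largest difference of the guide strands, miR-17-5p came next and miR-19b-3p had the smallest, while the order of the other 4 differed.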

How the data were processed

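The submitters' processing notes name Agilent Feature Extraction, version 11.0.1.1, which read the spots. Per the file headers, spot values are intensity values with the background subtracted, with 0 or 1 flags for outlier spots and for spots well above background; the probe design names build rn4. The authors' processed values are deposited on a log2 scale whose normalization is not given in the sources used here. Total RNA was labelled with cyanine 3, per the labels.

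Outlier spots (8.32% to 9.63% per array) were left out and spots averaged per probe. Detection of a probe required the well-above-background flag on more than 50% of its spots. Scaling used each array's 75th percentile over the 885 probes that every array detected, probes summed per miRNA, and a floor of 5.14 set before log2. The number of arrays limits the precision. Groups, taken from the titles, were fitted in R 4.3.3 by limma, version 3.58.1 (eBayes, 4 residual and 2.52 prior degrees of freedom) over all tested miRNAs, with Benjamini-Hochberg adjustment. Differences between 2 miRNAs were compared with two-sided exact permutation tests. The fits were also run on simulated data. These held no slide effect and larger changes than the members showed, so they do not bear on the calls of the members. The named miRNAs are the 10 members, 2 lists of relatives, cell type markers and the 4 nearest patterns of miR-18a-5p and of miR-17-5p. The members and lists were chosen with earlier results of these data known. Alternatives covered scaling, combining probes, background correction, filters, floor, variance model, blocks and single samples left out.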

Additional observations from a re-analysis of the deposited data

How the results depend on the processing

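Over 23 alternatives, miR-18a-5p lay between 0.50 and 0.83 and passed in 20. In limma, 2 members were higher with normexp and with trend and robust settings, and 0 with the slide as a block, on slide 1 alone or with the replicate block (5, 4 and 3 at an unadjusted p under 0.05). Among all tested miRNAs, 8 were higher and 3 lower. With the 75th percentile over all probes and with median scaling it was 5 and 5. Higher counts were also 5 with quantile normalization, the authors' values and a floor 4 times as high, 4 on slide 1 and 3 with no filter and with either block. Lower counts were 6 with the software total signal, 1 with no scaling, the higher floor, detection on all arrays, or only probes detected on all arrays (added after seeing the data), and 0 with either block and on slide 1, with 21 (replicate block), 29 (slide block) and 25 (slide 1) at an unadjusted p under 0.05. With single samples left out they ranged from 4 to 11 higher and from 0 to 1 lower, with 1 member higher each time.

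No strand pair of the members was called (0, with 1 or 2 at an unadjusted p under 0.05 in limma) with quantile normalization, the brightest probe, the software total signal, the authors' values, other filters, either block, slide 1 alone, probes detected on all arrays, or any sample left out (0 to 0). MiR-17-1-3p turned to -0.046 (75th percentile over all probes), -0.063 (median), -0.070 (quantile), -0.040 (no scaling and mean of log2 probes), -0.027 (software total) and -0.033 (authors' values), and ranged from -0.060 to 0.13 with single samples left out. The miR-20a strand change ranged from -0.036 to 0.061 there. The differences between miR-18a-5p and the 6 other guide strands kept their direction in all 23, and each was over 1.5 times smaller with normexp.

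Same-numbered replicates did not pair: their deviations correlated at 0.12, -0.04 and 0.11 over miRNAs. Between differently numbered replicates the correlations were larger in size, from -0.55 (control 3 with MI 1) to 0.52 (control 2 with MI 1). With the replicate block, miR-18a-5p stood at 0.77 (limma adjusted p = 0.0508), and 3 miRNAs were higher and 0 lower. The cause of these changes was not tested.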
